A study of Mus musculus with 8 samples.

Results

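The genes described here are 6 that build or regulate junctions between cells: the atypical cadherin Fat1, the cadherins Cdh3, Cdh5 and Cdh23, beta-catenin (Ctnnb1) and the tight junction plaque protein cingulin (Cgn). They were chosen by gene symbol in the probe annotation, and they are 6 of the 5822 symbols that the annotation gives to features with a single symbol. All 6 carried enough ratios to be tested, 4 of them on all 8 arrays. Cultured cortical astrocytes of newborn C57BL/6j mice lacking connexin43 (Cx43 KO, 4 arrays) were compared with wild-type astrocytes (WT, 4 arrays). Each 2-colour array held astrocyte RNA in one channel and, in the other, a reference mixed from tissues of adult mice (aorta, brain, heart, kidney, liver, lung, ovary or testicles, spleen and stomach). Every value below is a log2 ratio of astrocytes over that pool, centred on the median of its array, with base 2 assumed. A value compares a gene with the pool and is not its abundance. The array called Cx43 KO 3 is titled Cx43 only, without the word KO.

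Cadherins bind one another across the gap between neighbouring cells in the presence of calcium. The inner tail of a classical cadherin holds beta-catenin, which is tied to actin through alpha-catenin, and beta-catenin that escapes degradation also acts in the nucleus as a coactivator in Wnt signalling. Connexin43 forms gap junctions, which lie beside these adhesive contacts, and it binds the scaffold ZO-1, the product of Tjp1. In astrocytes N-cadherin (Cdh2) is the main classical cadherin. The comparison asks whether transcripts of neighbouring junction proteins differ when connexin43 is missing.

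An array carried a ratio for 3506 to 5514 of its 9568 features. Gja1, the gene of connexin43, was named by 0 features, so the targeted transcript could not be read as a check of the labels. Among connexin and pannexin genes, the connexin Gja4 and the pannexin Panx1 had no ratio on any array. Gjc1 (connexin45) had 2 Cx43 KO and 3 WT values. No dye is given in the sources used here, and the direction of the ratio rests on marker genes. The radial glial and astrocyte gene Fabp7 averaged 4.09 over the arrays, while the lung surfactant gene Sftpc averaged -5.83 and the gastric gene Gkn2 -5.44. Fabp7 was named for its high mean, and Sftpc and Gkn2 for their low means. Of the 6 adult tissue genes tested, 0 had a mean above the pool. The defining astrocyte genes Gfap, Aqp4, Slc1a3 and Aldh1l1 are not analysed here, Slc1a2 had no ratio, and 5 of the 5 astrocyte markers tested had a mean above the pool. Cx43 KO 4 stood apart, with a mean of 0.46 over 3 astrocyte markers measured on all arrays, against 1.75 to 2.20 on the other arrays. On the same array 7 microglia and macrophage markers had a mean of 1.93, against -0.04 to 1.19 elsewhere, and 5 fibroblast, meningeal and mural markers a mean of 2.06, against -1.42 to 1.63 elsewhere. Cx43 KO 1 and 2 stood at the other end of both lists. Their means were -0.04 and 0.28 for the microglia and macrophage markers, against 0.59 to 1.19 on WT arrays. For the fibroblast, meningeal and mural markers they were -1.42 and -1.06, against 0.46 to 1.63 on WT arrays. In such cultures fewer cells of a type and less RNA per cell cannot be told apart.

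Fat1 and Ctnnb1 lay far above the tissue pool in both genotypes, Cdh3, Cdh23 and Cdh5 near or below it, and Cgn well below it. Fat1 ranked 7 and Ctnnb1 ranked 22 from the top among the mean ratios of 2900 named genes tested, while Cgn ranked 112 from the bottom. None of the 6 genes passed the test between genotypes. Fat1, Ctnnb1, Cdh3 and Cdh23 had a positive difference, Cx43 KO minus WT, and Cdh5 and Cgn a negative one. With limma, 0 of the 6 had an adjusted p under 0.05 (range 0.655 to 0.835), beside 0 of 3505 genes and unnamed features tested (0%). At an unadjusted p under 0.05, 1 of the 6 was below the threshold, Fat1, beside 263 of 3505, which is 7.50%. The values of the genotypes overlapped for all 6 genes, and did not overlap for 4.20% of the 2596 genes and features measured on all arrays. The median difference over the 6 genes was 0.24, against 0.02 over all tested, with each array centred on its median. With scale normalization the differences were 0.06 for Fat1, -0.081 for Ctnnb1, 0.40 for Cdh3, 0.28 for Cdh23, -0.47 for Cdh5 and -0.29 for Cgn.

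**Figure D1:**
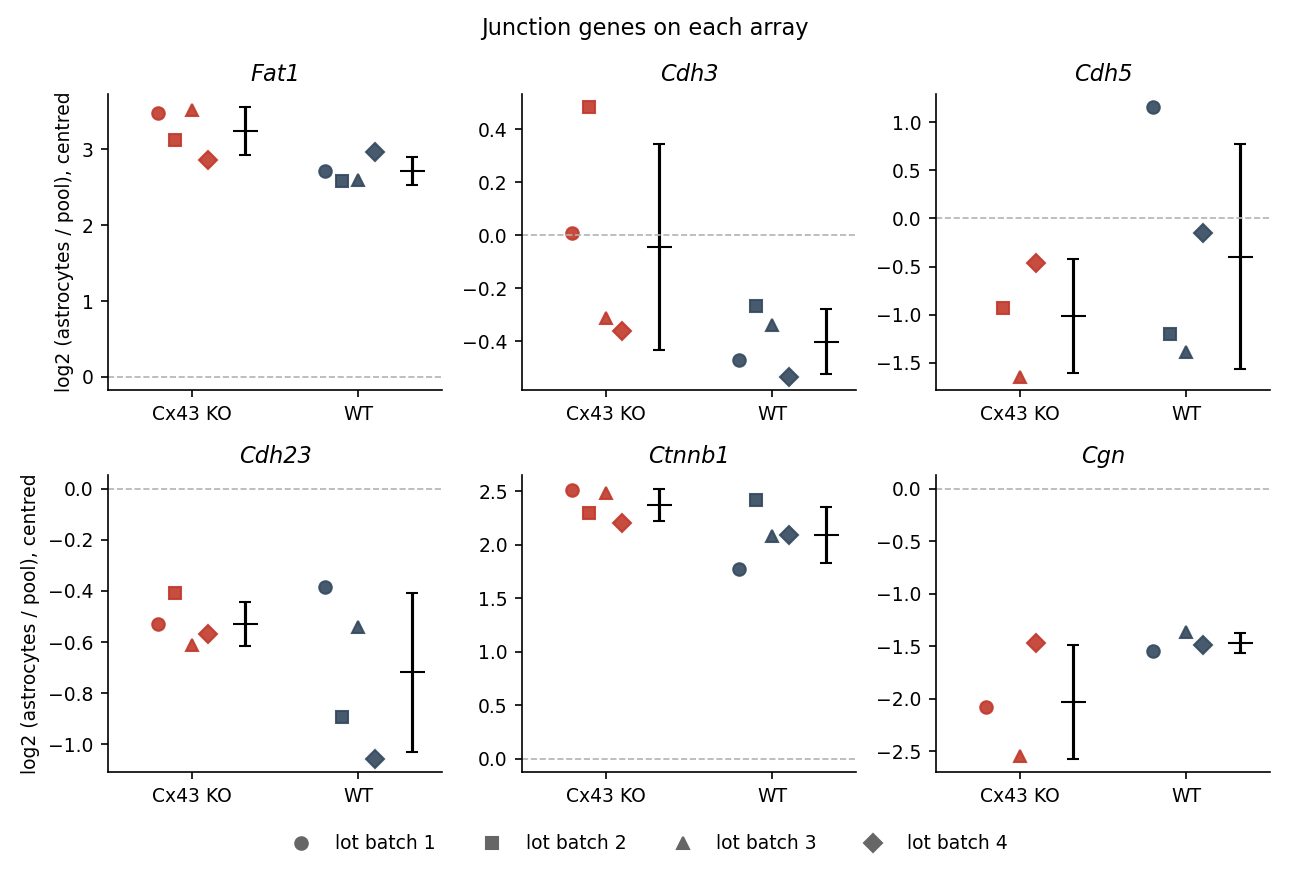
Centred log2 ratio of astrocytes over the tissue pool (vertical axis) for each of the 6 junction genes on each array, with Cx43 KO in red and WT in dark blue, symbols for the lot batch, and the mean and SD as black bars. The vertical scales differ between panels. Fat1 and Ctnnb1 lie above 0 on every array and Cgn below 0 on every array that gave a ratio, and the genotypes overlap in each panel.

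Fat1 encodes a very large cadherin-like protein that organises actin at cell contacts and is linked to planar polarity and Hippo signalling. Its log2 ratio was 3.48, 3.12, 3.52 and 2.86 on Cx43 KO 1 to 4, against 2.72, 2.58, 2.59 and 2.97 on WT 1 to 4. Cx43 KO 1, 2 and 3 lay above every WT array, and Cx43 KO 4 lay inside the WT range. The means were 3.24 ± 0.31 (SD, n = 4) in Cx43 KO and 2.71 ± 0.18 (SD, n = 4) in WT. After centring on the array medians, these are 9.48-fold and 6.56-fold over the pool. The difference of 0.53 (SE 0.20, 95% interval 0.09 to 0.97) did not pass (limma adjusted p = 0.655, unadjusted p = 0.022). It ranked 92 of 2900 by p and 261 by size. The unadjusted p was 0.053 with lot batch as a block, 0.065 without Cx43 KO 1, 0.066 without Cx43 KO 3, 0.056 without WT 2 and 0.057 without WT 3. Within lot batches 1 to 4, each holding 1 array of each genotype, the difference was 0.76, 0.54, 0.93 and -0.11. It shrank to 0.06 with scale normalization and to 0.21 with quantile normalization, and both of these equalise the spread of the arrays.

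Ctnnb1 encodes beta-catenin, which joins the cadherin tail to alpha-catenin. Its log2 ratio was 2.51, 2.30, 2.49 and 2.20 on Cx43 KO 1 to 4, against 1.78, 2.42, 2.08 and 2.09 on WT 1 to 4. Cx43 KO 1 and 3 lay above every WT array, and WT 1 was the lowest of all. The means were 2.37 ± 0.15 (SD, n = 4) in Cx43 KO and 2.09 ± 0.26 (SD, n = 4) in WT. After centring, these are 5.18-fold and 4.26-fold over the pool. The difference of 0.28 (SE 0.18, 95% interval -0.12 to 0.69) did not pass (limma adjusted p = 0.760). It was positive in 3 of 4 lot batches, and it turned to -0.081 with scale normalization and to -0.044 with quantile normalization. Leaving out WT 1 gave 0.18, and leaving out lot batch 1 gave 0.13.

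Cdh3 encodes P-cadherin, a classical cadherin best known from placenta and epithelia. The annotation names 2 features for it, and 1 of them had no ratio on any array, so that its values rest on the other. Its log2 ratio was 0.0096, 0.48, -0.31 and -0.36 on Cx43 KO 1 to 4, against -0.47, -0.27, -0.34 and -0.53 on WT 1 to 4. Cx43 KO 1 and 2 lay above every WT array, and Cx43 KO 3 and 4 inside the WT range. The means were -0.04 ± 0.39 (SD, n = 4) in Cx43 KO and -0.40 ± 0.12 (SD, n = 4) in WT. The difference of 0.36 (SE 0.21, 95% interval -0.11 to 0.82) did not pass (limma adjusted p = 0.751). Cdh3 was higher in Cx43 KO in 4 of 4 lot batches, by 0.48, 0.75, 0.03 and 0.17. Without Cx43 KO 2 its difference was 0.18.

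Cdh23 encodes a long cadherin best known from the tip links of hair cells in the inner ear. Its log2 ratio was -0.53, -0.41, -0.61 and -0.57 on Cx43 KO 1 to 4, against -0.39, -0.89, -0.54 and -1.06 on WT 1 to 4. All Cx43 KO values lay inside the WT range, which was the wider. The means were -0.53 ± 0.09 (SD, n = 4) in Cx43 KO and -0.72 ± 0.31 (SD, n = 4) in WT, a difference of 0.19 (SE 0.19, 95% interval -0.23 to 0.60, limma adjusted p = 0.835). It was positive in 2 of 4 lot batches. Leaving out WT 4 gave 0.08, and leaving out WT 1 gave 0.30.

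Cdh5 encodes VE-cadherin, the cadherin of endothelial adherens junctions. Its log2 ratio, averaged over up to 3 features, was -0.93, -1.65 and -0.47 on Cx43 KO 2 to 4, with no ratio on Cx43 KO 1, against 1.16, -1.20, -1.39 and -0.16 on WT 1 to 4. WT 1 was the one array on which the gene lay above the pool, and the SD of 0.95 over the arrays was larger than that of 97.6% of named genes tested. The features numbered 414, 1200 and 8968 in the array's list gave 0.95, 1.36 and 1.16 on WT 1, and all 3 lay below -0.9 on WT 2 and WT 3. Each feature thus placed WT 1 highest, although feature 8968 had no ratio on Cx43 KO 2. The means were -1.02 ± 0.59 (SD, n = 3) in Cx43 KO and -0.40 ± 1.17 (SD, n = 4) in WT. The difference of -0.62 (SE 0.57, 95% interval -1.90 to 0.67) did not pass (limma adjusted p = 0.826), and without WT 1 it was -0.10.

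**Figure D2:**
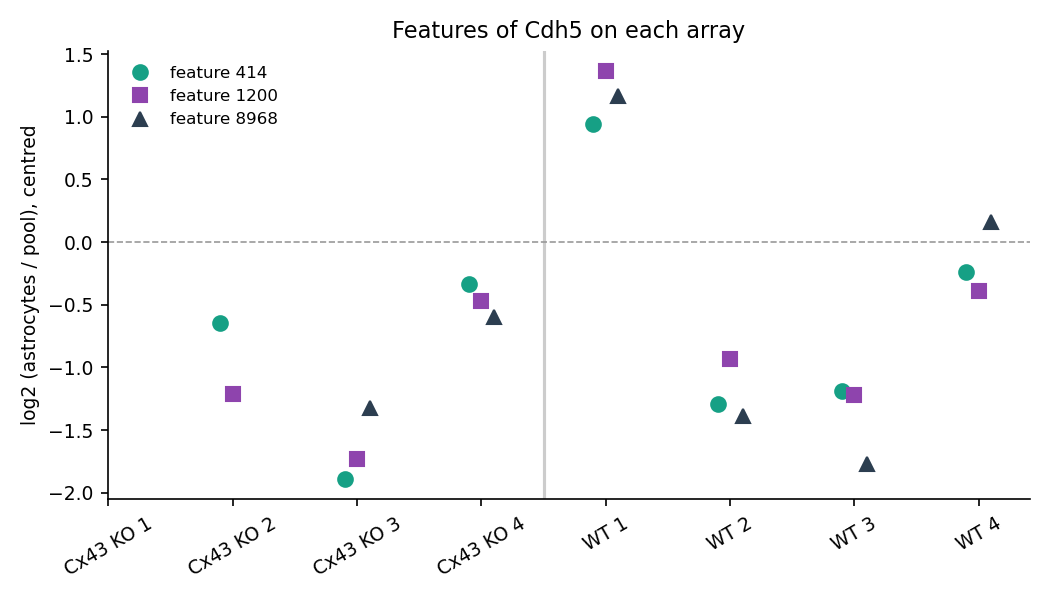
Centred log2 ratio over the pool (vertical axis) of the 3 features of Cdh5 on the 4 Cx43 KO arrays (left) and the 4 WT arrays (right). The features move together between arrays, and WT 1 is the one array on which all of them lie above 0.

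Other endothelial genes lay below the pool on WT 1, as most did on the other arrays. Of the 3 measured on all arrays, Ets1 was highest on WT 1, but Cd34 and Mmrn2 were not. Ets1 is a transcription factor that endothelial cells share with other cells. Of 15 listed endothelial markers on the array (Cdh5 not counted) 12 had a ratio on some array, while Nos3, Plvap and Ramp2 had none. On WT 1, 9 of these genes had a ratio and all 9 lay below the pool, between -2.48 and -0.75, among them the endothelial receptors Tie1 at -1.26 and Flt1 at -0.98. For comparison, 9 of 11 lay below it on Cx43 KO 1 and 7 of 8 on WT 4. Ets1 lay at -2.22 to -1.25 on the 4 Cx43 KO arrays, against -0.75 on WT 1 and -1.51 to -1.44 on WT 2 to 4. Cd34 was at -1.65 on WT 1, against -2.08 to -1.14 on the other arrays. Mmrn2 was at -0.82 on WT 1, against -1.30 to 0.47 on the other arrays. The sum over the 3 markers measured on all arrays, Cd34, Ets1 and Mmrn2, was -4.63 to -3.32 in Cx43 KO and -3.77 to -2.66 in WT. The arrays with the 3 highest Cdh5 values, Cx43 KO 4, WT 1 and WT 4, were also those with the 3 highest means of the fibroblast, meningeal and mural markers, at 2.06, 1.63 and 1.24. The part of these cells in the Cdh5 values was not tested.

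Cgn encodes cingulin, a plaque protein that lies under the tight junctions of epithelia and endothelia. Its log2 ratio was -2.08, -2.55 and -1.47 on Cx43 KO 1, 3 and 4, against -1.55, -1.36 and -1.49 on WT 1, 3 and 4, with no ratio in lot batch 2. Cx43 KO 1 and 3 were lower than all WT arrays, and Cx43 KO 4 lay inside the WT range. The means were -2.03 ± 0.54 (SD, n = 3) in Cx43 KO and -1.47 ± 0.09 (SD, n = 3) in WT. After centring, these are 4.09-fold and 2.76-fold below the pool. The difference of -0.56 (SE 0.29, 95% interval -1.22 to 0.09) did not pass (limma adjusted p = 0.696). With at least 2 values per genotype it was -0.85 without Cx43 KO 4 and -0.30 without Cx43 KO 3, and scale normalization gave -0.29.

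**Figure D3:**
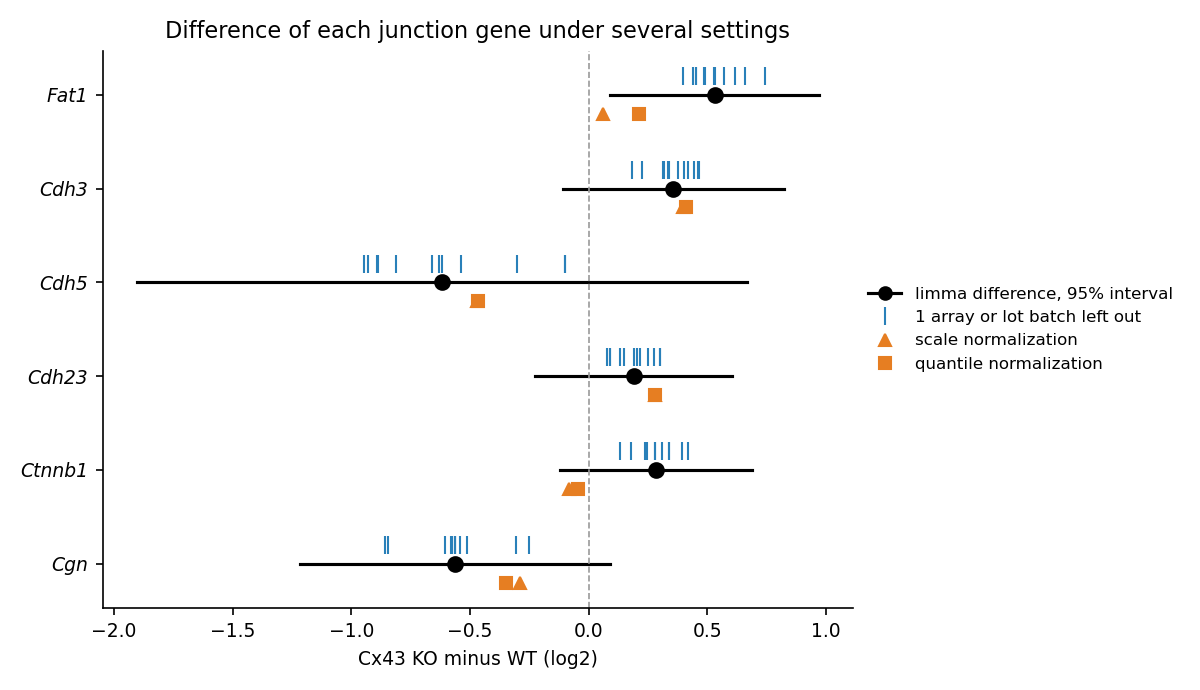
Cx43 KO minus WT difference on the log2 scale (horizontal axis) for each junction gene, with the limma estimate and its 95% interval in black, the values with 1 array or 1 lot batch left out as blue ticks, and those under scale and quantile normalization in orange. Fat1 keeps a positive value but shrinks under both normalizations, Ctnnb1 turns slightly negative under both, and the widest interval is that of Cdh5.

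Among the named genes tested, those far from the pool tended to differ in a direction that went with their side of it, under median centring. The ratios spread more widely on Cx43 KO arrays, with a median absolute deviation of 0.88 to 0.98, against 0.75 to 0.89 on WT arrays. Among the 35 named genes with a mean ratio above 2, which include Fat1 and Ctnnb1, 24 were higher in Cx43 KO, with a median difference of 0.14. Among the 250 with a mean ratio between -2 and -1, which include Cgn, 94 were higher, with a median of -0.08. Among the 2272 between -1 and 1, where Cdh3, Cdh23 and Cdh5 lay, the median was 0.02. Scale normalization turned these medians to -0.22 above 2 and 0.12 between -2 and -1, and quantile normalization to -0.14 and 0.06.

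**Figure D4:**
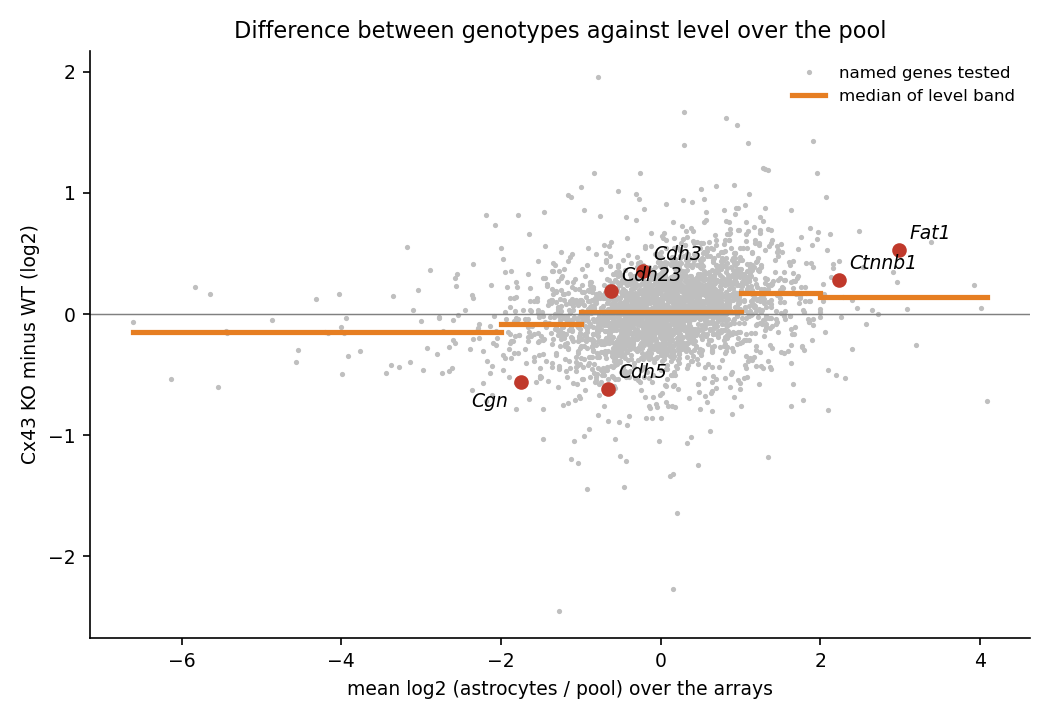
Cx43 KO minus WT difference (vertical axis, log2) against the mean log2 ratio over the pool (horizontal axis) for the 2900 named genes tested, in grey, with the 6 junction genes in red and the median difference of each level band as orange lines. The median is below 0 in the bands under -1 and above 0 in the bands over 1.

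Cx43 KO 4 lay inside the WT range for all 6 genes, and it was the Cx43 KO array nearest to the WT mean for 5 of them, Cdh23 being the exception. For Cdh3, Cdh5, Cdh23 and Ctnnb1 other Cx43 KO arrays lay inside that range too. The share of all genes with Cx43 KO 4 inside the WT range was not computed. Without Cx43 KO 4 the differences were 0.66 for Fat1, 0.34 for Ctnnb1 and 0.46 for Cdh3 (limma adjusted p = 0.239, 0.512 and 0.408). They were 0.20 for Cdh23 and, with at least 2 values per genotype, -0.89 for Cdh5 and -0.85 for Cgn. Leaving out the Cx43 KO array nearest to WT enlarged these differences by construction, except that of Cdh23. The marker values of Cx43 KO 4, and of Cx43 KO 1 and 2, are given above, and their part in the junction genes was not tested.

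The remaining genes of these junctions were described by lists. Of 44 further cadherins, 5 were on the array and 2 were tested, both with a small positive difference. Cdh2, the N-cadherin of astrocyte contacts, had log2 ratios of 2.25, 2.27, 1.62 and 0.13 on Cx43 KO 1 to 4, against 1.51, 1.68, 1.37 and 1.60 on WT 1 to 4. Cx43 KO 1 and 2 lay above every WT array and Cx43 KO 4 beneath them all, and the mean difference was 0.02 (SE 0.41, limma adjusted p = 0.995). The glycolipid-anchored cadherin Cdh13 differed by 0.12 (SE 0.37).

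Catenins and adherens junction partners that could be tested lay mostly above the pool, 5 of 6. Of these genes, out of 19 on the array, 3 were higher and 3 lower in Cx43 KO, with a median difference of -0.0022 and 0 passed. The polarity kinase Prkci differed by 0.34 (SE 0.21), the receptor phosphatase Ptprf by 0.26 (SE 0.27), the nectin-bound scaffold Afdn by -0.18 (SE 0.29) and the plakophilin relative Pkp4 by -0.09 (SE 0.23). Ctnna1, which encodes the widely expressed alpha-catenin, had no ratio.

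Tight junction genes other than Cgn were 2 higher and 5 lower of 7 tested, with a median of -0.08 and 0 passed. The smallest p belonged to Ybx3, a Y-box protein that binds ZO-1 and shuttles to the nucleus. Its log2 ratio was -2.38, -2.19, -2.44 and -2.75 on Cx43 KO 1 to 4, against -1.91, -1.46, -2.03 and -1.69 on WT 1 to 4. The genotypes did not overlap, as was the case for 4.20% of the 2596 genes and features measured on all arrays. The difference of -0.67 (SE 0.19) did not pass (limma adjusted p = 0.572). Among the 75 named genes with a mean ratio below -2, where Ybx3 lay at -2.11, 20 were higher in Cx43 KO. Their median difference was -0.15, against 0.33 with scale and 0.05 with quantile normalization. The pore-forming claudin Cldn2 differed by -0.57 (SE 0.27, n = 3 arrays per genotype), the angiomotin-like Amotl2 by 0.44 (SE 0.23) and Cldn15 by 0.17 (SE 0.27), and none of these passed in the limma fit. Tjp1, the gene of ZO-1, had a ratio on Cx43 KO 4 (3.84), WT 1 (1.34) and WT 4 (3.58) and was not tested. Both desmosome genes tested lay below the pool, with differences of -0.18 for Ppl and -0.15 for Dsg2 on 3 arrays per genotype.

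Genes that act on or with beta-catenin showed no call. Of 12 tested genes of the destruction complex and the Wnt pathway, 7 were higher and 5 lower in Cx43 KO, with a median of 0.12. The ubiquitin ligase subunits that recognise beta-catenin, Fbxw11 and Btrc, differed by 0.37 (SE 0.18) and 0.58 (SE 0.42), the kinase Csnk1e by -0.27 (SE 0.17) and the Wnt receptor Fzd2 by -0.28 (SE 0.19). Btrc stood at 2.57 on Cx43 KO 4 and at 0.38 to 0.88 on the other Cx43 KO arrays. Of 12 listed beta-catenin targets on the array 3 were tested, with differences of 0.53 for Cd44, -0.15 for Ppard and 0.02 for Sox9, while Axin2, Ccnd1, Ccnd2 and Myc had no ratio. Cd44 was highest on Cx43 KO 4, at 2.88.

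Hippo and Fat signalling genes all had a positive difference, 8 of 8 tested, where 52.6% of all genes and features tested did. Their median was 0.20, against 0.02 over all tested, and 0 passed. Of 19 such genes on the array 11 had a ratio, while Lats2, Sav1, Tead2 and Tead3 were among those with none. Limd1, a LIM protein that restrains the Lats kinases, differed by 0.58 (SE 0.26, limma adjusted p = 0.666), the phosphatase Ptpn14 by 0.36 (SE 0.19), the coactivator Yap1 by 0.21 (SE 0.20) and the membrane scaffold Nf2 by 0.31 (SE 0.32). Of the 8 tested genes 4 had a mean ratio between 1 and 2, where the median difference of all named genes was 0.17 (-0.05 with scale normalization), and 4 between -1 and 1, where it was 0.02. Of all named genes in these bands, 69.0% and 53.3% were higher in Cx43 KO.

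The arrays also give, for each gene measured on all of them, the genes whose deviations from their own mean were closest. The measure is the mean absolute difference of these deviations over the 8 arrays, among 2162 other named genes. For Fat1 they were Prrc2b, Grk5 and Arid5b, at 0.10 each, where the median gene was at 0.37. For Ctnnb1 they were Soga1, Rnf123 and Vps53 (0.08 to 0.10, median gene 0.30), for Cdh3 Stag1, Brox and Rab2b (0.09 to 0.10, median gene 0.34) and for Cdh23 Cdon, Cops7b and Rpl38 (0.10 each, median gene 0.30). These genes were picked for likeness on the same arrays, so that their own differences, such as 0.53 for Grk5 and 0.45 for Prrc2b, follow from the choice.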

How the data were processed

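The deposited table holds, per the labels, 2-channel arrays with astrocyte RNA in channel 2 and a tissue pool in channel 1. Its deposited values were read as log2 ratios, although the logarithm's base, the dyes, the background correction and the normalization are not stated there. Exact 0 was read as no ratio. Array medians before centring were 0.09 to 0.32. Each array was centred on its median, features with 1 symbol were averaged per gene, and genes with at least 3 values per genotype were tested with limma 3.58.1 (R 4.3.3; two-sided, Benjamini-Hochberg adjustment over 3505 genes and unnamed features, threshold 0.05, no block). Of the 9568 features, 7307 had 1 symbol (7256 of them matched to the gene table of GRCm38.p6), 318 had several and 1943 were unnamed.

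Whether the samples are separate cultures or animals is not given in the labels. The p-values then reflect the spread between these samples alone, and that spread may be technical. Same-numbered arrays share a lot batch, per the labels. Across genes, the deviations of such a pair from the means of their genotypes had correlations of -0.18, 0.19, -0.13 and -0.19. The fit was tested on simulated data. The precision is limited by the number of arrays.

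The 6 genes, the lists and the tests were chosen with earlier results of these data known. Named genes were the 6, up to 4 per junction list with the smallest p, up to 4 per marker list with the highest mean, and the 3 nearest in pattern. Endothelial, adult tissue and other genes named beside them were chosen after their values were seen.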

Additional observations from a re-analysis of the deposited data

Results flagged for a closer look

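In groups of 4 arrays, the gap between 1 array and the rest was large against the range of the group in 3 of the 104 groups examined over the genes named here, where chance gives about 1 in 20, and in 0 of the 9 groups of the 6 junction genes. The Wnt receptor Fzd2 was low on WT 3, at -1.21. The transcription factor Ets1 was high on WT 1, at -0.75, the array on which Cdh5 was also highest. The endothelial markers Cd34 and Mmrn2 were not highest on that array. The oligodendrocyte gene Cnp was low on Cx43 KO 4, at -1.53.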

How the results depend on the processing

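Fat1 had an unadjusted p under 0.05 in 12 of its 22 alternatives (0.0019 to 0.769 over all 22). None of the 6 genes passed the adjusted threshold under any alternative run (lowest adjusted p 0.120, Fat1 without lot batch 4). The differences of Fat1, Cdh3, Cdh23, Cdh5 and Cgn kept their sign in every alternative. Ctnnb1 turned to -0.081 with scale and -0.044 with quantile normalization. Leaving out 1 array gave 0.44 to 0.66 for Fat1, 0.18 to 0.39 for Ctnnb1, 0.18 to 0.46 for Cdh3, 0.08 to 0.30 for Cdh23, -0.95 to -0.10 for Cdh5 and -0.85 to -0.30 for Cgn. The last 2 include fits with at least 2 values per genotype, chosen after seeing the data, as was centring on features measured on all arrays. With lot batch as a replicate block the differences stayed the same except for Cdh5, at -0.10 because the lone WT array of lot batch 1 then carries no contrast. The block changed no adjusted call and gave 196 genes at an unadjusted p under 0.05. That count was 511 with array weights, 140 to 384 without 1 array, and 142, 161, 102 and 427 without lot batch 1, 2, 3 and 4, where fewer genes were tested. Genes past the adjusted threshold numbered 2 with array weights and 0 to 4 without 1 array (4 without Cx43 KO 4 and 1 without WT 2), none of them among the 6. Levels moved by more than 1 SD in these cases. Without centring, Cdh23 was at -0.31 and Ctnnb1 at 2.59 in Cx43 KO, and Cdh3 at -0.19, Cgn at -1.29 and Fat1 at 2.93 in WT. With exact 0 kept, which leaves the arrays uncentred, they were the same for Cdh23, Ctnnb1 and Fat1, with Cgn at -1.37 in Cx43 KO and at -0.97 in WT, and Cdh3 at -0.093 in WT. Scale normalization gave Ctnnb1 2.19 in Cx43 KO, and Cgn -1.57 and Fat1 2.94 in WT. Quantile normalization gave Fat1 2.92 in WT. Values without centring keep the median of their array, and with exact 0 kept the zeros enter the averages. What moved the levels under scale and quantile normalization was not tested. With values on all arrays required, Cdh5 and Cgn gave no value.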
